A study of Mus musculus with 18 samples.

Results

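The expression of 10 genes that normally work in germ cells and at meiosis was examined in mammary tumors of 3 mouse models and in normal mammary gland. The genes were Stag3, Smc1b, Tuba3a, Slc25a31, Stk31, Mael, Hormad1, Ddx4, Dazl and Tex101, and they were taken by symbol from the 55450 genes of the count table, where each symbol matched 1 gene. The question was whether tumors that carry an inhibitor of the Rb family switch on germline genes that complexes of E2F and Rb family proteins and of Polycomb proteins hold off in body cells.

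RNA was sequenced from 18 female C57Bl/6 mice, with 1 library per mouse. Adenoviral Cre, delivered through the nipple into the ducts of adult mice, deleted floxed alleles and switched on the transgene. The 5 B1/P/Rbf tumors had the genotype Brca1fl/fl/Trp53fl/fl/TgK18GT121Tg/+, the 5 B1/P tumors Brca1fl/fl/Trp53fl/fl, and the 5 P/Rbf tumors Trp53fl/fl/TgK18GT121Tg/+. All 15 tumors thus carried floxed Trp53, and the 3 normal glands were wild type. The transgene encodes T121, an N-terminal fragment of the SV40 large T antigen that binds and inactivates pRb, p107 and p130, from keratin 18 regulatory sequence, so it acts in epithelial cells. B1/P tumors are the counterpart of B1/P/Rbf without it. The study describes B1/P tumors as basal-like and negative for hormone receptors, and both T121 models as luminal and positive for them. The parts of T121 and of tumor subtype thus cannot be told apart here. P/Rbf and B1/P tumors differ in both T121 and floxed Brca1, whose parts in that comparison cannot be told apart. The age of each mouse at collection was not given in the sources used here. The study reports the longest mean survival after induction in B1/P mice and the shortest in B1/P/Rbf mice, so ages may differ by genotype. The tissue was bulk tumor or gland, and in such RNA fewer cells of a type and less RNA per cell cannot be told apart.

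Body cells keep meiotic and germline genes silent by several layers. E2F6 with its partner DP1, and MGA with its partner MAX, recruit a variant Polycomb complex built on PCGF6 and RYBP or YAF2 to promoters of such genes, where DNA methylation often follows. The Rb family proteins p107 and p130 hold cell cycle promoters off together with the repressor E2Fs, and some germline genes have E2F sites of the same kind. Many germline genes are known to be switched on by mistake in cancers, where they are called cancer-testis genes.

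The promoters of the members show the sequences at issue. Each window runs from 250 bases before to 50 bases after a start site in RefSeq on GRCm38.p6, and all 10 members had one, in 12 windows. The letters GCGGGA, the core bound by E2F6, were present on either strand in 7 members, against 20.0% of all 32851 windows of that length. The letters CACGTG, the E-box bound by MGA with MAX, were present in 6 members, against 7.15% of all windows. The longer form GCGGGAA, which contains GCGGGA, was present in 6 members, namely Stag3, Smc1b, Tuba3a, Slc25a31, Hormad1 and Ddx4, against 4.60% of all windows. TTTGAA, the cell cycle homology region bound by the DREAM complex of p107 and p130, was present in none of the 10, against 17.9% of all windows. Dazl and Tex101 had neither GCGGGA nor CACGTG. The member windows held 12 to 38 CpG dinucleotides, against a median of 7 over all windows. These matches describe the letters only. Members are counted over any of their windows, and the background by window. The members were also chosen as germline genes held off by such complexes, so no excess is read from these shares.

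Of the 10 members, 5 promoters are printed because the results turn on those genes. Capitals mark GCGGGA or its reverse complement TCCCGC, and CACGTG. Stag3 and Smc1b had their highest counts in B1/P tumors, the group through which Smc1b passed the count filter. Hormad1 was detected in 1 tumor, Ddx4 had counts in every library, and Dazl, which has no capitals, was highest in the glands. The windows lie at chr5:138280259-138280558 on the plus strand for Stag3, chr15:85131908-85132207 on the minus strand for Smc1b, chr3:95559427-95559726 on the plus strand for Hormad1, chr13:112652261-112652560 on the minus strand for Ddx4 and chr17:50293571-50293870 on the minus strand for Dazl.
Stag3: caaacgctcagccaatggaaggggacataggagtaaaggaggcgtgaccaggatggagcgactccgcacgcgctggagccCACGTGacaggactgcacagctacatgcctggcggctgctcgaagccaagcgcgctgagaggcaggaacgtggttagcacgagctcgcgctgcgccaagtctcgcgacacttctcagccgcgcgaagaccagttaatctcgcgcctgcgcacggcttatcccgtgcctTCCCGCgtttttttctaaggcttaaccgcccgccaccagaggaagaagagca
Smc1b: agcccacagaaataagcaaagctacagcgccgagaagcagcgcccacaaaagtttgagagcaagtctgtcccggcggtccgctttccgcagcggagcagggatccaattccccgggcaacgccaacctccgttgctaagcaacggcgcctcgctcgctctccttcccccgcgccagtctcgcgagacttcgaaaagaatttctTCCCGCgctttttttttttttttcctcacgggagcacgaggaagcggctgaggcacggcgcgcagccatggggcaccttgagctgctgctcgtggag
Hormad1: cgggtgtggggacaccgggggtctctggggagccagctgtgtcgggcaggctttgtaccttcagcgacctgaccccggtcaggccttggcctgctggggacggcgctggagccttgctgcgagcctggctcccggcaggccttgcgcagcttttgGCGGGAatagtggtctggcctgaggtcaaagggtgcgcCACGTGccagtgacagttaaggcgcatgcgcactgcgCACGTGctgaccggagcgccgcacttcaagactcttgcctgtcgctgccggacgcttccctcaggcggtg
Ddx4: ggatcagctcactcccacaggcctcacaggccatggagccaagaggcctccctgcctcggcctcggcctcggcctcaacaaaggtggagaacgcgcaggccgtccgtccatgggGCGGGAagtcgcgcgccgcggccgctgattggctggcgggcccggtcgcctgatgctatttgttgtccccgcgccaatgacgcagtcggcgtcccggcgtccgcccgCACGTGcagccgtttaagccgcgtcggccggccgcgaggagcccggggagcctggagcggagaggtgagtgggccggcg
Dazl: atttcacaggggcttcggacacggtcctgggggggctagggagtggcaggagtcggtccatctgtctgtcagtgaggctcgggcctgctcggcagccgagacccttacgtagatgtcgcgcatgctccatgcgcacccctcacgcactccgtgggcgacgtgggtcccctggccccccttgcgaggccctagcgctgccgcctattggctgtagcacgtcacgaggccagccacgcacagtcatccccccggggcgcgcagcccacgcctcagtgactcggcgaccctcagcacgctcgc

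The deposited values were expected counts per gene, with totals of 27661173 to 37794889 per library. CPM are counts per 1000000 counts of a library, its total adjusted by the trimmed mean of M values, and a count of 0 allowed up to 3 counts, which is 0.0754 to 0.117 CPM depending on the library. These limits cover counting error only. Trp53 had 6.75 to 24.3 CPM in the 15 tumors and 54.4 to 71.8 CPM in the glands, without overlap. Brca1 had 8.13 to 27.9 CPM in B1/P tumors, 21.1 to 45.0 CPM in B1/P/Rbf tumors and 44.9 to 116 CPM in P/Rbf tumors, against 4.61 to 5.99 CPM in glands, and the gene total cannot show which exons were lost. Tumor 208863 had the highest level of the B1/P/Rbf group, 45.0 CPM against 21.1 to 27.9 CPM. The study describes the loss of Brca1 expression in that tumor as partial. No row of the table holds the T121 transgene, so its expression was not measured here. Only 3 of the 10 members, Stag3, Smc1b and Ddx4, had counts high enough for the test across genes, which kept 19186 genes.

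**Figure D1:**
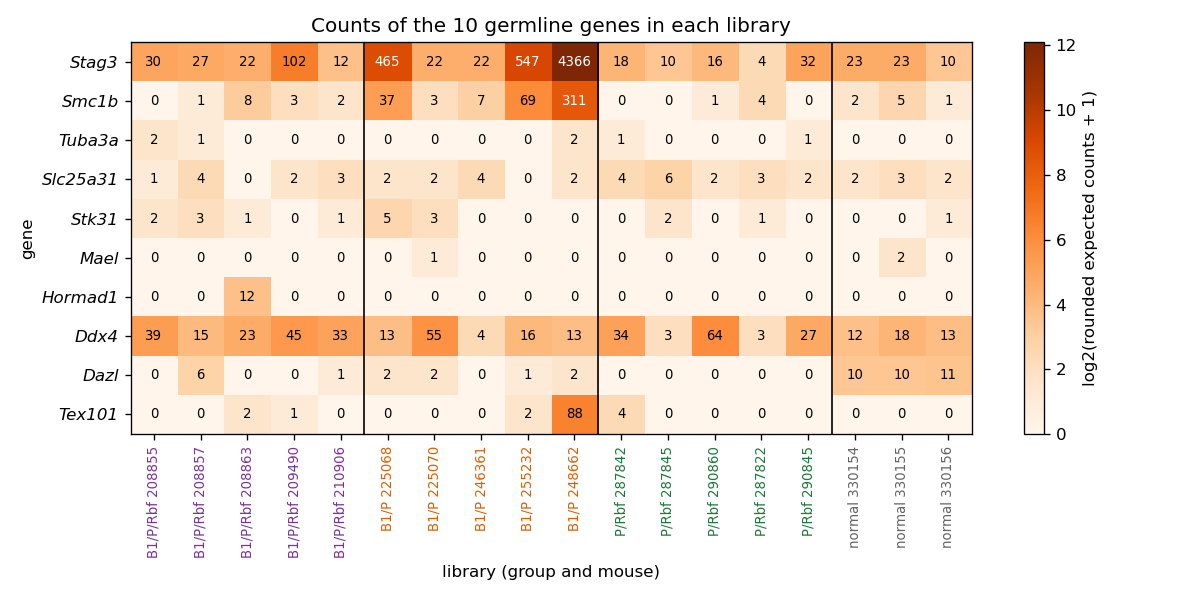
Rounded expected counts of the 10 members (rows) in each of the 18 libraries (columns, grouped by genotype, group boundaries as black lines), with color on a log2(counts + 1) scale. Stag3 and Smc1b stand out in B1/P tumors 225068, 255232 and 248662, and most other cells hold counts of 0 to 6.

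No tested member was called higher in tumors with T121 than in tumors without it. In B1/P/Rbf against B1/P tumors, 0 of the 3 tested members were called higher, where 7.36% of all tested genes were, and 2 were called lower, where 9.29% were. In P/Rbf against B1/P tumors, 0 were called higher (8.43% of all tested genes) and 2 were called lower (10.8%). The members called lower were Stag3 and Smc1b in both comparisons, which share the B1/P libraries. Smc1b had 10 or more counts only in 3 B1/P tumors and so entered the test through the group where it is high, and nothing is read from its part in these counts. The 2 called lower became 1 with limma-voom in both comparisons and 0 with a term for 2 sets of libraries in B1/P/Rbf against B1/P. Between both kinds of T121 tumor, 0 members were called in either direction, where the share of all tested genes called was 0.219% for higher in B1/P/Rbf and 0.0625% for lower. A call is an adjusted p of 0.05 or less in the edgeR quasi-likelihood test. At an unadjusted p under 0.05 the counts of members were the same as above in each comparison, and DESeq2 and limma-voom also called 0 members higher in either T121 group than in B1/P.

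Against the normal glands, 2 members, Stag3 and Smc1b, were called higher in B1/P tumors, where 16.8% of all tested genes were, and 0 were called lower, where 16.9% were. Smc1b entered the test through B1/P, where it is high, and nothing is read from its part in this count either. In B1/P/Rbf tumors 0 were called higher (17.1% of all tested genes) and 0 lower (20.0%). In P/Rbf tumors 0 were called higher (17.4%) and 0 lower (20.3%). The 0 counts were also 0 at an unadjusted p under 0.05 by edgeR, and 0 by DESeq2 and limma-voom. The median log2 fold change over all tested genes lay between -0.06 and 0.12 in these 6 comparisons.

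Stag3 encodes the cohesin subunit that replaces STAG1 and STAG2 at meiosis, and it lies at chr5:138280240-138312393 on the plus strand. In B1/P tumors it had 465, 22, 22, 547 and 4366 counts in mice 225068, 225070, 246361, 255232 and 248662. In B1/P/Rbf tumors 208855, 208857, 208863, 209490 and 210906 it had 30, 27, 22, 102 and 12 counts. In P/Rbf tumors 287842, 287845, 290860, 287822 and 290845 it had 18, 10, 16, 4 and 32 counts, and the normal glands 330154, 330155 and 330156 had 23, 23 and 10. The B1/P tumors thus fell apart, with 3 of 5 above every other library of the series and 2 of 5 within the range of the T121 tumors and glands.

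The mean level of Stag3 was 34.0 ± 58.4 CPM (SD, n = 5) in B1/P, 1.03 ± 0.886 CPM (SD, n = 5) in B1/P/Rbf, 0.487 ± 0.369 CPM (SD, n = 5) in P/Rbf and 0.663 ± 0.291 CPM (SD, n = 3) in glands. The log2 fold change was -5.03 (SE 1.22, edgeR adjusted p = 0.0103) in B1/P/Rbf against B1/P and -6.12 (SE 1.29, edgeR adjusted p = 0.00449) in P/Rbf against B1/P. B1/P tumors against glands gave 5.67 (SE 1.59, edgeR adjusted p = 0.0112). The exact two-sided permutation test of mean log2 CPM gave an unadjusted p of 0.119, 0.0397 and 0.179 for these comparisons, in the same order. With limma-voom all 3 calls of Stag3 ended, at -2.79 (limma adjusted p = 0.188), -3.49 (limma adjusted p = 0.113) and 3.98 (limma adjusted p = 0.105), and over all alternatives the adjusted p ranged from 5.57e-06 to 0.188, 2.35e-08 to 0.113 and 4.84e-06 to 0.105. The call against glands also ended without gland 330156 (5.34, edgeR adjusted p = 0.0557).

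Smc1b encodes the meiotic form of the SMC1 arm of the cohesin ring, at chr15:85064689-85131964 on the minus strand. It had 37, 3, 7, 69 and 311 counts in the B1/P tumors in the order given for Stag3. The B1/P/Rbf tumors had 0, 1, 8, 3 and 2 counts, the P/Rbf tumors 0, 0, 1, 4 and 0, and the glands 2, 5 and 1. Tumors 225068, 255232 and 248662 were again the 3 highest libraries, and B1/P tumors 225070 and 246361 again fell within the range of the other groups.

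Smc1b averaged 2.66 ± 4.07 CPM (SD, n = 5) in B1/P, against 0.0777 ± 0.0854 CPM (SD, n = 5) in B1/P/Rbf, 0.0261 ± 0.0456 CPM (SD, n = 5) in P/Rbf and 0.0919 ± 0.0660 CPM (SD, n = 3) in glands. The log2 fold change was -5.03 (SE 1.26, edgeR adjusted p = 0.0124) in B1/P/Rbf against B1/P and -6.41 (SE 1.38, edgeR adjusted p = 0.00504) in P/Rbf against B1/P. B1/P tumors against glands gave 4.79 (SE 1.57, edgeR adjusted p = 0.0258). These calls carry the selection by the filter given above. The call against glands ended in a fit of only those groups (edgeR adjusted p = 0.0523) and without gland 330154, 330155 or 330156 (edgeR adjusted p = 0.0903, 0.0592 and 0.104). Over all alternatives the adjusted p ranged from 0.000269 to 0.124, 1.10e-05 to 0.0292 and 0.00230 to 0.104. The exact two-sided permutation test gave an unadjusted p of 0.0317, 0.0159 and 0.0893, in that order. Over the 15 tumors, log2 CPM of Stag3 and Smc1b had a Pearson correlation of 0.88, given as a description because the libraries share genotypes.

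Tumor 248662 carried much of the size of these differences. Without it, the log2 fold change of Stag3 was -2.95 (edgeR adjusted p = 0.0444) in B1/P/Rbf and -4.04 (edgeR adjusted p = 0.0115) in P/Rbf against B1/P. That of Smc1b was -3.42 (edgeR adjusted p = 0.0422) and -4.80 (edgeR adjusted p = 0.0120). The calls of Smc1b, here and against the glands, carry the selection by the filter given above, and nothing is read from them. Against the glands, B1/P tumors without 248662 kept the call of Stag3, at 3.59 (edgeR adjusted p = 0.0296), and lost that of Smc1b, at 3.18 (edgeR adjusted p = 0.0730). That library also held skeletal muscle RNA, with 5612 counts of Acta1 and 7289 of Myh4. The glands held 191594 to 331325 counts of Acta1 and 10 to 23 counts of Stag3. The part of muscle RNA in the level of Stag3 was not tested.

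The sample descriptions number the libraries from 1 to 18 without a break. A split of them into 2 sets, 1 to 8 and 9 to 18, was taken over from an earlier analysis of these data as an alternative, and neither the labels nor the methods give such sets or name a batch. Every B1/P/Rbf tumor falls in the first set, together with 225068, 225070 and 246361 of B1/P, while 255232 and 248662, every P/Rbf tumor and the glands fall in the second. Within the first, Stag3 had 22 to 465 counts in 3 B1/P tumors and 12 to 102 in 5 B1/P/Rbf tumors, which overlap. Within the second, it had 547 and 4366 counts in 2 B1/P tumors, above the 4 to 32 of P/Rbf tumors and the 10 to 23 of glands. A term for these sets ended both calls of B1/P/Rbf against B1/P. The log2 fold changes were -2.36 for Stag3 (edgeR adjusted p = 0.119) and -2.56 for Smc1b (edgeR adjusted p = 0.124). That term kept both calls of P/Rbf against B1/P. The calls of Smc1b carry the selection by the filter given above.

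**Figure D2:**
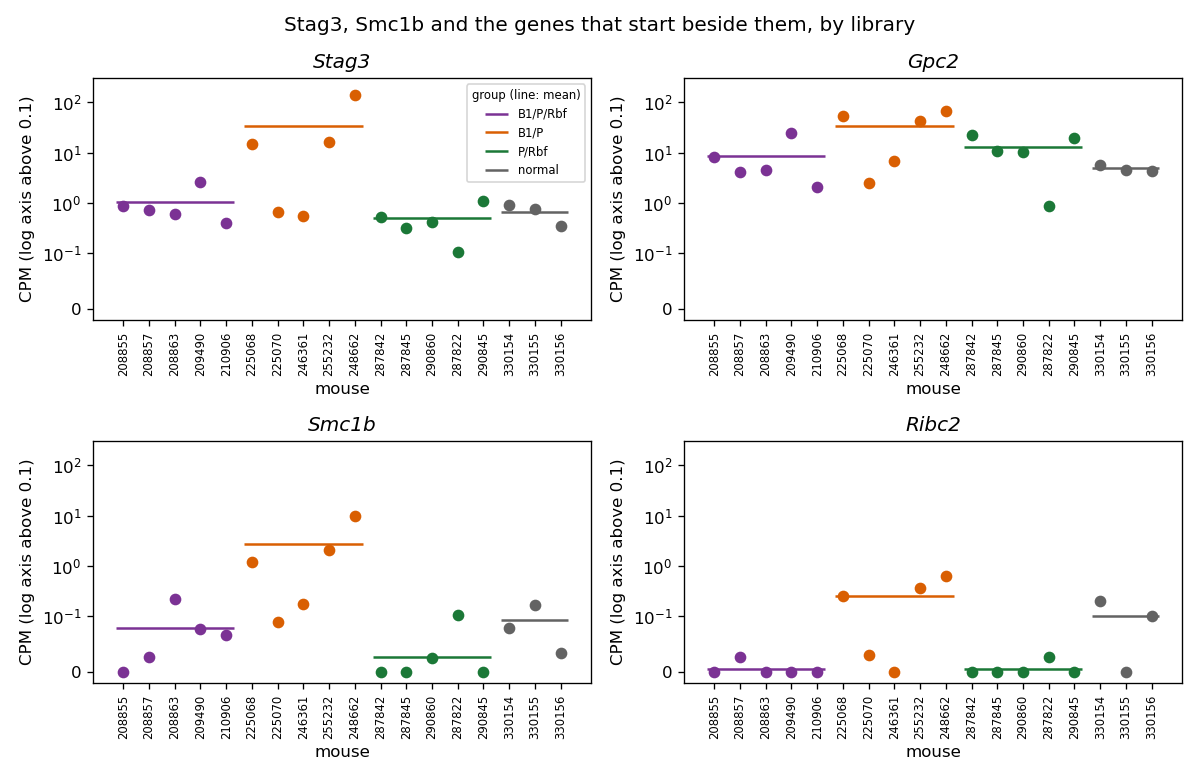
CPM (vertical axis, logarithmic above 0.1) of Stag3, Smc1b and the genes that start beside them, Gpc2 and Ribc2, in each of the 18 libraries (horizontal axis, mice in group order), with group means as lines. B1/P tumors 225068, 255232 and 248662 were the highest libraries for all 4 genes.

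Both cohesin genes share their start region with a gene on the other strand. Gpc2, a glypican of the cell surface, starts 235 bases from Stag3 and had 1649, 1411 and 2174 counts in B1/P tumors 225068, 255232 and 248662, against 33 to 945 in the other 12 tumors. Ribc2, a protein of ciliary microtubules, starts 114 bases from Smc1b and had 8, 12 and 20 counts in the same tumors, 0 or 1 in the other tumors and 0 to 5 in glands. The sum of 6 markers of ciliated cells was 5.15 to 10.3 CPM in B1/P tumors and 48.8 to 189 CPM in B1/P/Rbf tumors, with 4.98 to 48.6 CPM in P/Rbf tumors and 8.54 to 8.99 CPM in glands. Foxj1 made up most of that sum in B1/P/Rbf, with a mean of 97.3 CPM, and was called higher there than in B1/P (edgeR adjusted p = 0.000613). Cfap126 (17.3 against 2.63 CPM, edgeR adjusted p = 0.00218) and Rsph1 (3.80 against 0.905 CPM, edgeR adjusted p = 0.0375) were also called higher there. The list member Dnah5 had the opposite order, with means of 0.0280 CPM in B1/P/Rbf, 0 CPM in P/Rbf and 0.417 CPM in B1/P. Dnah5 had up to 32 counts in B1/P and at most 3 elsewhere, so it passed the count filter through the group where it is high. No test of it is given. The annotated transcripts of neither pair overlap. Over the 15 tumors, Pearson's correlation of log2 CPM was 0.80 for Stag3 with Gpc2 and 0.94 for Smc1b with Ribc2, again as a description.

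In 248662 Stag3 reached the level of its mitotic counterpart Stag2, and elsewhere the meiotic forms stayed below. On the scale of CPM per kilobase of exon, Stag3 had 24.0 in tumor 248662, where Stag2 had 25.7 and Stag1 6.36. The B1/P median was 2.58 for Stag3, 13.3 for Stag2 and 5.61 for Stag1. Smc1b reached 2.42 and had a B1/P median of 0.291 on that scale, against 30.7 for Smc1a. In P/Rbf tumors the medians were 0.0706 for Stag3 and 0 for Smc1b, against 17.5 for Stag2 and 41.9 for Smc1a.

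Genes with the pattern most like each tested member were ranked by Pearson's correlation of log2 CPM over the 15 tumors. Pmp2, which encodes a lipid-binding protein of peripheral myelin, was among the closest to Stag3 (0.95) and to Smc1b (0.94). Its mean level was 1.04 CPM in B1/P, 0.00507 in B1/P/Rbf, 0 in P/Rbf and 0.985 in glands. Pmp2 was picked for its high correlation and shares the order of the tumor groups, so the match is given as a description only.

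Markers of other cells also differed between the high and the low B1/P tumors. The sum of 6 fibroblast markers was 12643 and 5787 CPM in tumors 225070 and 246361, the 2 with low Stag3, against 2446 to 2838 CPM in the other 3. The sum of 6 macrophage markers was 2849 and 949 CPM in them, against 324 to 464 CPM. Epithelial markers summed to 1863 and 735 CPM in them and 1208 to 3237 CPM in the other 3, which overlap. Of the tumor groups, B1/P and P/Rbf did not overlap in their epithelial sums, nor B1/P and B1/P/Rbf in their basal sums, and the other pairs overlapped. Over the tumors, the summed epithelial markers were 735 to 3237 CPM in B1/P, 2886 to 6478 CPM in B1/P/Rbf and 6089 to 12425 CPM in P/Rbf. The sum of 6 basal markers was 340 to 2168 CPM in B1/P, 48.9 to 334 CPM in B1/P/Rbf and 72.8 to 1444 CPM in P/Rbf. All 6 markers of each list passed the count filter, and their part in the levels of Stag3 and Smc1b was not tested.

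Ddx4, the Vasa RNA helicase of germ cell granules, lies at chr13:112598333-112652475 on the minus strand and had counts in all 18 libraries, above 3 in 16 of them. It had 39, 15, 23, 45 and 33 counts in B1/P/Rbf tumors and 13, 55, 4, 16 and 13 in B1/P tumors. It had 34, 3, 64, 3 and 27 counts in P/Rbf tumors and 12, 18 and 13 in glands. The 3 tumor groups overlapped throughout, with P/Rbf tumors spread from 0.0790 to 1.62 CPM.

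Mean levels of Ddx4 were 0.872 ± 0.332 CPM (SD, n = 5) in B1/P/Rbf, 0.605 ± 0.591 CPM (SD, n = 5) in B1/P, 0.738 ± 0.655 CPM (SD, n = 5) in P/Rbf and 0.499 ± 0.0790 CPM (SD, n = 3) in glands. The log2 fold change was 0.52 (SE 0.74, edgeR adjusted p = 0.670) in B1/P/Rbf against B1/P and 0.29 (SE 0.74, edgeR adjusted p = 0.817) in P/Rbf against B1/P. Against glands it was 0.80 (SE 0.89, edgeR adjusted p = 0.510) in B1/P/Rbf, where 4 of 5 tumors lay above every gland, and 0.56 (SE 0.88, edgeR adjusted p = 0.643) in P/Rbf. These standard errors leave room for changes of the size seen in either direction. The genes most like Ddx4 over the 15 tumors were Wdr89 and Ccdc130, both with a correlation of 0.88.

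Dazl, an RNA-binding protein that germ cells need to enter meiosis, lies at chr17:50279395-50293636 on the minus strand and showed the opposite order, with glands on top. The glands had 10, 10 and 11 counts. B1/P/Rbf tumors had 0, 6, 0, 0 and 1, B1/P tumors 2, 2, 0, 1 and 2, and all 5 P/Rbf tumors 0. Every tumor thus lay below every gland, at up to 0.162 CPM against 0.327 to 0.391 CPM. Between P/Rbf and B1/P tumors, with 0 to 2 counts in each, a difference was not detectable at this depth.

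The exact two-sided permutation test of Dazl gave an unadjusted p of 0.0179 for each tumor group against the glands, the smallest that 5 against 3 can give, among 60 such tests of 10 members in 6 comparisons. All tumors of a group lay below all glands for 19.1% of the 32772 genes with a count in B1/P/Rbf, 16.1% in B1/P and 18.9% in P/Rbf, so such an order was common, and Dazl was the only member that showed it. Dazl fell below the count filter, and a fit without the filter called it lower than in glands only in P/Rbf tumors (edgeR adjusted p = 0.00265), with edgeR adjusted p = 0.0547 in B1/P/Rbf and edgeR adjusted p = 0.0667 in B1/P. The glands also held 21112 to 26905 CPM of 6 adipocyte markers, against 6.43 to 218 CPM in tumors, and 493 to 693 CPM of 6 lymphocyte markers, against 14.0 to 119 CPM. Their sum of 6 muscle markers was 23177 to 45886 CPM, against 0.949 to 649 CPM in tumors. The part of these cells in the level of Dazl was not tested.

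Hormad1, a protein of the meiotic chromosome axis that is known as a cancer-testis gene, lies at chr3:95559677-95587671 on the plus strand. It had 12 counts in B1/P/Rbf tumor 208863 and 0 in the other 17 libraries. The level in that tumor was 0.331 CPM. With counts in 1 library alone, no test of the groups was informative.

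In tumor 208863 the neighbours of Hormad1 on both sides were far higher than in the other 14 tumors. Of 82 tested genes within 1000000 bases of it, 10 were at least 5-fold above the median of the other tumors, by 16.7-fold to 43.2-fold. They lay between 272 kb before and 108 kb after the middle of Hormad1. Anxa9, Cers2, Setdb1 and Arnt stood on one side, and Golph3l, Ensa, Mcl1 and Adamtsl4 on the other. Golph3l, which starts 1263 bases after Hormad1, had 54806 counts in that tumor and 739 to 2112 in the other 14. Between them, Ctsk and Ctss were 1.53-fold and 3.99-fold above the median of the other tumors.

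The median ratio over the 82 genes was 1.03, and no other tumor had more than 3 genes at 5-fold or above in that region. DNA copy number was not measured, and how this block relates to the 12 counts of Hormad1 was not tested. Setdb1, a histone methyltransferase that helps silence germline genes, lies in the block. It had 129814 counts in that tumor against 2573 to 5772 in the other 14, and its call in B1/P/Rbf against B1/P (log2 fold change 2.81, edgeR adjusted p = 0.0336) ended without it (-0.01, edgeR adjusted p = 0.973) and in 7 other alternatives.

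**Figure D3:**
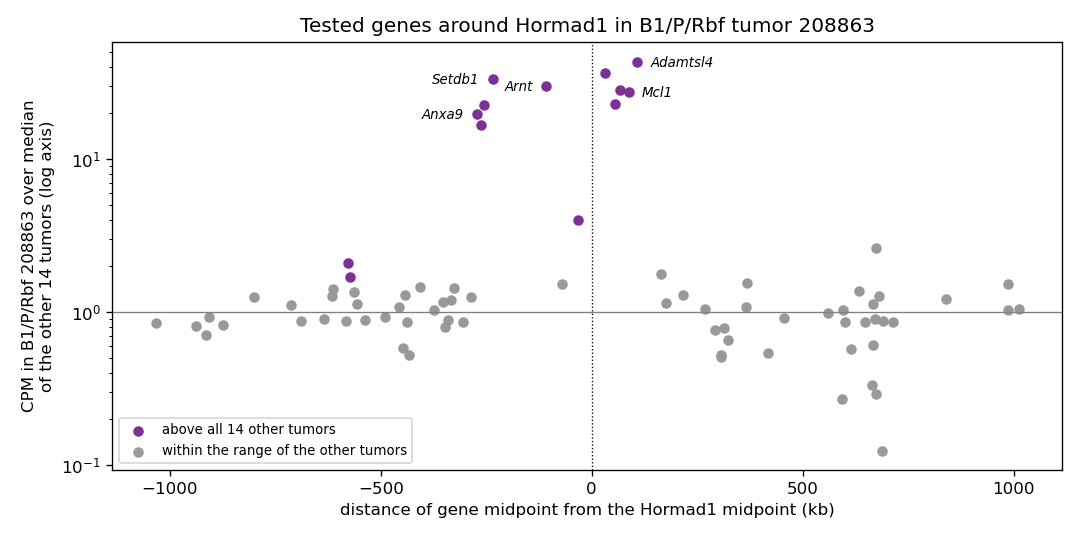
Ratio of CPM in B1/P/Rbf tumor 208863 to the median of the other 14 tumors (vertical axis, logarithmic) against the distance of each tested gene's middle from that of Hormad1 in kb (horizontal axis). Ratios of 16.7 to 43.2 occur only between -272 and 108 kb, and 4 genes with no counts in that tumor are not drawn.

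Tex101, a surface protein of germ cells and sperm, lies at chr7:24668007-24676675 on the minus strand. It had 88 counts (2.77 CPM) in B1/P tumor 248662, the tumor with the highest Stag3 and Smc1b, and 2 in tumor 255232. The other 3 B1/P tumors and the glands had 0. P/Rbf tumor 287842 had 4 counts, B1/P/Rbf tumors 208863 and 209490 had 2 and 1, and the rest had 0. In the exact permutation test of P/Rbf against B1/P tumors it had an unadjusted p of 0.722, and the groups overlap.

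The other 4 members were at or near the limit of detection in every library. Slc25a31, the ADP/ATP carrier of male germ cells at chr3:40708855-40726096, had 0 to 4 counts in B1/P/Rbf and B1/P tumors, 2 to 6 in P/Rbf tumors and 2 or 3 in glands. Stk31, a Tudor domain kinase-like protein of the testis at chr6:49395604-49469501, had 5 and 3 counts in B1/P tumors 225068 and 225070 and at most 3 in any other library. Mael, which helps piRNAs silence transposons and lies at chr1:166201201-166238747, had 1 count in B1/P tumor 225070, 2 in gland 330155 and 0 in the other 16 libraries. Tuba3a, an alpha tubulin of the testis at chr6:125278274-125286042, had at most 2 counts.

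For these 4 genes no difference between groups was detectable at this depth. The smallest unadjusted p of the exact permutation test in a comparison of T121 with B1/P tumors was 0.190, for Slc25a31 in P/Rbf against B1/P. Tuba3a has a near-identical copy, Tuba3b, with at most 6 counts, and an exon of the noncoding gene 4930417O13Rik overlaps it on the other strand, so its few counts are uncertain.

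Beyond the members, 71 genes in 4 lists of meiotic and germline genes were examined, of which 38 passed the filter. In B1/P/Rbf against B1/P the test called 2 of them higher and 3 lower, and in P/Rbf against B1/P 0 and 9. Over all tested genes 7.36% were called higher and 9.29% lower in the former and 8.43% and 10.8% in the latter, so the 2 and 3 of 38 are near the general rate. The 9 became 1 with limma-voom and 5 in a fit of only the groups compared, and 3 of them, Mei4, Hfm1 and Henmt1, passed the filter through B1/P, where they are high. For the 0, DESeq2 called 2 higher and limma-voom 2, and 5 were higher at an unadjusted p under 0.05 by edgeR. The median log2 fold change was -0.10 and 0.20, against -0.06 and -0.05 over all tested genes. By list, 1 higher and 0 lower of 6 tested meiotic axis genes, 1 and 1 of 15 recombination genes, 0 and 1 of 11 piRNA genes and 0 and 1 of 6 germ cell regulators were called in B1/P/Rbf. In P/Rbf the calls were all lower, 0 of 6, 3 of 15, 3 of 11 and 3 of 6.

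**Figure D4:**
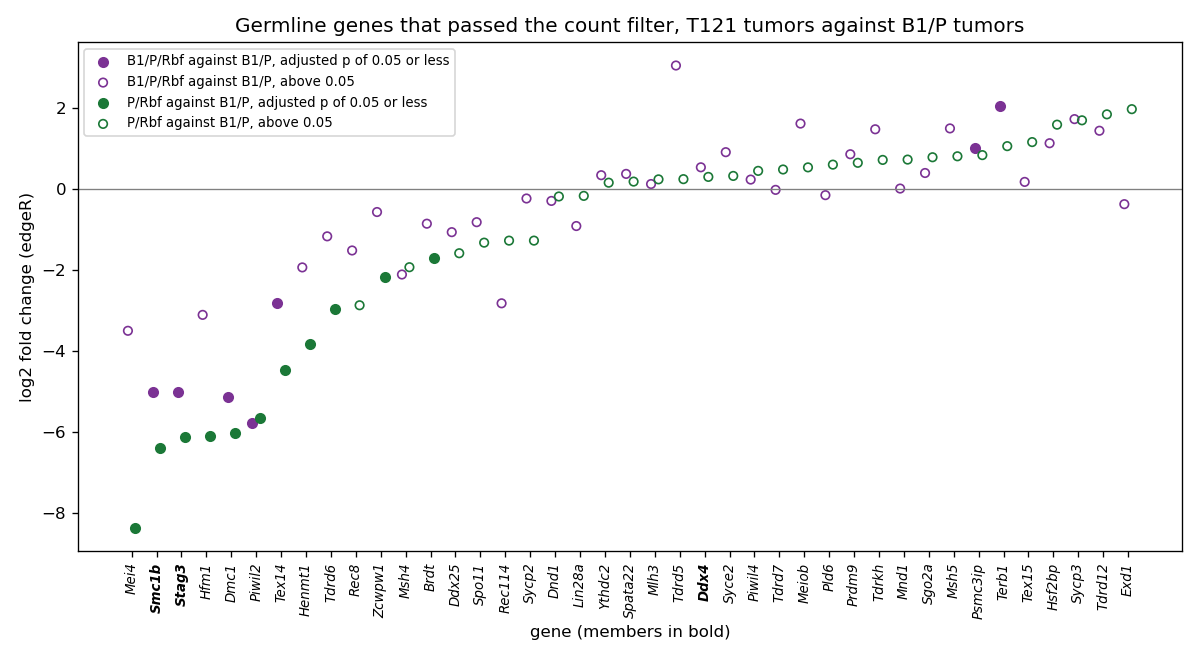
Log2 fold change by edgeR (vertical axis) of the 3 tested members (bold) and the 38 tested genes of the germline lists (horizontal axis), for B1/P/Rbf (purple) and P/Rbf (green) against B1/P tumors, with filled points at an adjusted p of 0.05 or less. Stag3 and Smc1b lie at -5.03 and below, near Dmc1 and Piwil2, and filled points above 0 are Terb1 and Psmc3ip in B1/P/Rbf.

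Piwil2 encodes a PIWI protein that carries piRNAs. It had 2033, 133, 2710, 2980 and 1936 counts in B1/P tumors, 14 to 47 in B1/P/Rbf tumors, 20 to 87 in P/Rbf tumors and 47 to 65 in glands. All 5 B1/P tumors lay above every other library. The log2 fold change was -5.79 (SE 0.69, edgeR adjusted p = 0.000139) in B1/P/Rbf and -5.66 (SE 0.68, edgeR adjusted p = 0.000174) in P/Rbf, and both calls held in all 24 alternatives.

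Dmc1, the recombinase of meiosis, had 977 counts in B1/P tumor 255232, 36 in 225068 and 5 or 6 in the other 3, against 1 to 11 in T121 tumors and 10 to 14 in glands. Its log2 fold change was -5.13 (edgeR adjusted p = 0.0155) in B1/P/Rbf and -6.03 (edgeR adjusted p = 0.00792) in P/Rbf. Without tumor 255232 both calls ended, at -1.23 (edgeR adjusted p = 0.242) and -2.14 (edgeR adjusted p = 0.0502), and in all 4 and 2 of 23 alternatives ended them.

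In P/Rbf against B1/P tumors the piRNA methyltransferase Henmt1 (-3.84, edgeR adjusted p = 0.0156) and the intercellular bridge gene Tex14 (-4.49, edgeR adjusted p = 0.00705) were also called lower. The meiotic helicase Hfm1 was called lower too (edgeR adjusted p = 0.0103), with 64, 0, 16, 1 and 24 counts in B1/P tumors and 1 count in all 5 P/Rbf tumors together. Each of these 3 calls was lost in 1 of 24 alternatives, limma-voom. Mei4, which helps form meiotic breaks, was called lower (edgeR adjusted p = 0.0216), a call lost in 2 of 24 alternatives. Mei4, Henmt1 and Hfm1 reached 10 counts in 3 B1/P tumors each and in 1, 1 and 0 other libraries, so they passed the filter through the group where they are high, which favours a call of lower elsewhere. Mei4 had 0 counts in all 5 P/Rbf tumors and 0, 39, 2, 136 and 27 in B1/P tumors. Tdrd6, Zcwpw1 and Brdt were called lower there as well, with losses in 4, 6 and 3 alternatives. In B1/P/Rbf against B1/P, Tex14 was called lower (-2.81, edgeR adjusted p = 0.0495), a call lost in 20 of 24 alternatives.

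Terb1, which ties telomeres to the nuclear envelope at meiosis, was the germline gene with the firmest rise over B1/P tumors. It had 73 to 161 counts in B1/P/Rbf tumors and 8 to 38 in B1/P tumors, without overlap. The log2 fold change was 2.05 (SE 0.49, edgeR adjusted p = 0.00954) in B1/P/Rbf, a call that held in all 24 alternatives, and 1.05 (SE 0.48, edgeR adjusted p = 0.130) in P/Rbf. Psmc3ip, a partner of Dmc1, was called higher in B1/P/Rbf (1.00, edgeR adjusted p = 0.0286), a call lost in 8 of 24 alternatives. Against glands, Terb1 gave 2.55 (edgeR adjusted p = 0.00377) in B1/P/Rbf and 1.54 (edgeR adjusted p = 0.0463) in P/Rbf, both without overlap. In B1/P it gave 0.50 (edgeR adjusted p = 0.522). Tdrd5, named after its values were seen, had 55 to 1267 counts in B1/P/Rbf tumors and 4 to 9 in glands. It had 2 to 91 counts in B1/P and 1 to 195 in P/Rbf tumors, and no test of it is given.

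**Figure D5:**
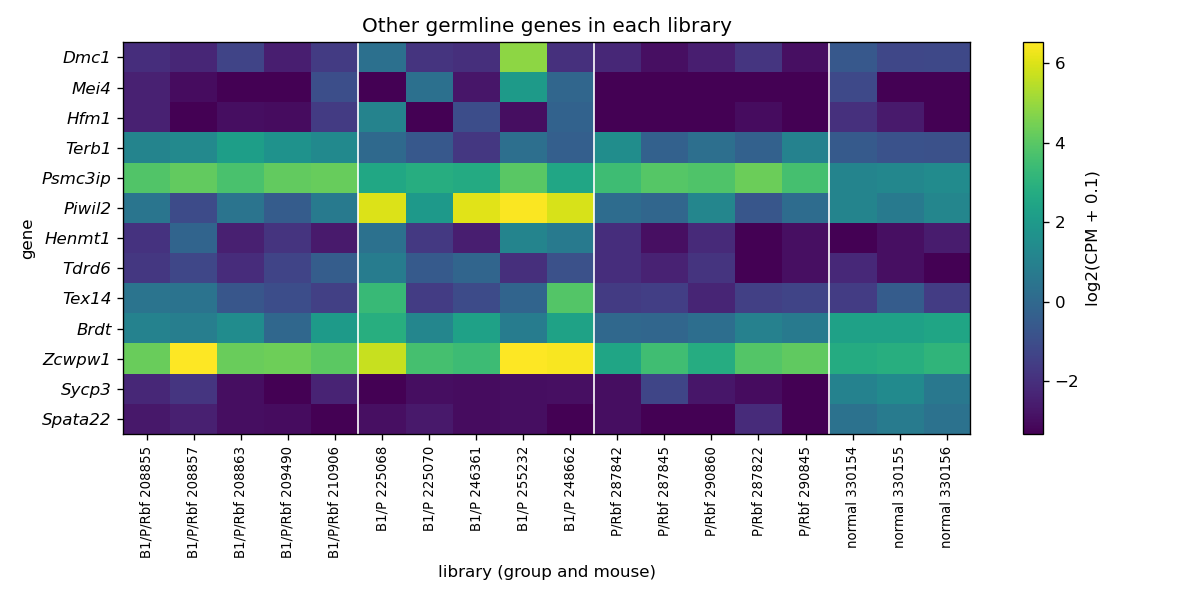
Level of 13 other germline genes (rows) in each of the 18 libraries (columns, grouped by genotype), as color on a log2(CPM + 0.1) scale. Piwil2 is high in 4 of 5 B1/P tumors and lower in 225070, Dmc1 is high in 255232 alone, and Sycp3 and Spata22 are high in the glands.

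Sycp3 and Spata22, chosen after their values were seen, had the order of Dazl. Sycp3, of the synaptonemal complex, had 50, 78 and 42 counts in glands and 0 to 10 in the 15 tumors. Spata22, of meiotic recombination, had 31, 49 and 36 counts in glands and 0 to 5 in tumors. Both reached the counts the filter asks for almost only through the glands, and since they were picked for this order no test is given. Rec8, the meiotic partner of Stag3 and Smc1b in cohesin, also named after its values were seen, had 610 counts in B1/P tumor 255232, 111 in 225068 and 0 to 2 in the other 3, and 185, 90 and 108 in tumors 208863, 209490 and 287822.

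Genes of the complexes that silence germline promoters were expressed in every group. All 17 listed genes of the E2F6 and PCGF6 complex were tested. Against B1/P, calls in B1/P/Rbf were 1 higher and 3 lower, and in P/Rbf 1 and 2, where 7.36% and 9.29%, and 8.43% and 10.8%, of all tested genes were called. Pcgf6 fell by 0.69 (edgeR adjusted p = 0.0458) in B1/P/Rbf and by 0.75 (edgeR adjusted p = 0.0296) in P/Rbf on the log2 scale, calls lost in 18 and 7 of 24 alternatives. Rybp fell by 0.72 (edgeR adjusted p = 0.0207) and by 0.73 (edgeR adjusted p = 0.0185), each lost in 4 of 25 alternatives. Yaf2 fell by 0.98 in B1/P/Rbf (edgeR adjusted p = 0.00627), and this held in all 24. Hdac1, a histone deacetylase, rose by 0.72 (edgeR adjusted p = 0.0232) and 0.62 (edgeR adjusted p = 0.0414), lost in 4 and 12 of 25 alternatives. E2f6 itself had mean levels of 36.2 CPM in B1/P/Rbf, 31.7 CPM in P/Rbf and 25.3 CPM in B1/P (edgeR adjusted p = 0.165 and 0.369).

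Of 12 genes of the other Polycomb complex and of DNA methylation, calls in B1/P/Rbf were 3 higher and 0 lower, and in P/Rbf 4 and 1, against the same shares of all tested genes. One of the 3 is Setdb1, whose call rested on tumor 208863. Suz12, a core subunit of that complex, rose by 0.90 (edgeR adjusted p = 0.00616) in B1/P/Rbf and 1.08 (edgeR adjusted p = 0.00229) in P/Rbf on the log2 scale, in all 25 alternatives. Dnmt1, the maintenance DNA methyltransferase, rose by 1.29 (edgeR adjusted p = 0.000799) and 0.62 (edgeR adjusted p = 0.0362), the latter lost in 12 of 25 alternatives. Tet1, which removes DNA methylation, fell by 5.15 in P/Rbf (edgeR adjusted p = 0.00108), with 0.610 CPM against 21.6 CPM in B1/P, and was not called in B1/P/Rbf (-0.95, edgeR adjusted p = 0.383).

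Of 12 listed E2F targets, 7 were called higher in B1/P/Rbf and 6 in P/Rbf, with 0 lower in both, where 7.36% and 8.43% of all tested genes were called higher. The replication gene Mcm4 rose by 1.38 (edgeR adjusted p = 5.78e-05) and 1.11 (edgeR adjusted p = 0.000235) on the log2 scale, Cdc6, which loads the replicative helicase, by 1.63 (edgeR adjusted p = 0.00255) and 1.47 (edgeR adjusted p = 0.00451), and the nucleotide synthesis gene Rrm2 by 1.15 (edgeR adjusted p = 0.0469) and 1.87 (edgeR adjusted p = 0.00406). The Rrm2 call in B1/P/Rbf was lost in 14 of 25 alternatives. Of 12 genes of the Rb and E2F families, 1 and 6 were called higher and 1 and 1 lower, against those shares and 9.29% and 10.8% lower. Rbl2, which encodes p130, fell by 1.15 (edgeR adjusted p = 0.00669) and 1.26 (edgeR adjusted p = 0.00391), and Rbl1, which encodes p107, rose by 1.07 (edgeR adjusted p = 0.0221) and 1.23 (edgeR adjusted p = 0.0100), the former lost without tumor 210906 (0.89, edgeR adjusted p = 0.0615). The repressor E2f7 rose by 1.63 (edgeR adjusted p = 0.00309) and the activator E2f2 by 1.26 (edgeR adjusted p = 0.0260) in P/Rbf, the latter lost in 8 of 24 alternatives. The library set term ended the P/Rbf calls of E2f7, E2f2, Rbl1, Cdc6 and Rrm2. Of 10 tested body-cell counterparts of the members, 0 were called in B1/P/Rbf and 2 were called higher in P/Rbf, the tubulin Tuba1c at 0.98 (edgeR adjusted p = 0.0113) and Stag1 at 0.76 (edgeR adjusted p = 0.0273), lost in 1 and 9 of 25 alternatives.

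Markers of germ cells were at low levels in every library. The summed level of 8 spermatid markers was 0.0526 to 1.37 CPM over all libraries and that of 8 oocyte markers 0.0954 to 2.22 CPM. In B1/P tumors 2 of the 8 spermatid markers and 0 of the 8 oocyte markers had no counts in any library. The 8 Sertoli and granulosa cell markers summed to 2.13 to 60.4 CPM, with the highest sum in B1/P/Rbf tumor 208855. In tumor 248662, the library with the highest Stag3, Smc1b and Tex101, the spermatid, oocyte and Sertoli and granulosa sums were 0.0631, 0.946 and 16.3 CPM, the last the highest of the 5 B1/P tumors.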

How the data were processed

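Bulk RNA of 15 tumors and 3 glands was sequenced by the authors as stranded, paired-end mRNA libraries, trimmed with Cutadapt 1.18 and quantified with RSEM 1.3.0. A human reference is named in the methods, but each of the 55450 gene IDs matches the mouse annotation GENCODE M21 (GRCm38). The deposited values are expected counts per gene, of which 5.61% were not whole, and they were rounded. Totals had a median of 33802255. Groups came from the labels. One edgeR 4.0.16 quasi-likelihood fit (R 4.3.3, TMM scaling, group as the only term) covered all 18 libraries, after filterByExpr with a minimum count of 10, with Benjamini-Hochberg adjustment over 19186 genes. Log2 CPM used a prior count of 2. Members were also compared by exact two-sided permutation tests. Alternatives were DESeq2 1.42.0, limma-voom (limma 3.58.1) with quantile normalization, no TMM, other filters, only the groups compared, a term for library sets and each library left out. The methods were tested on simulated data. The members and lists were chosen with earlier results of these data known. All members were named, and from each list up to 3 genes with the largest rise and fall among those called. Marker genes are given by their sums instead. Some genes with a pattern like that of a member are not reported here. RNA came from separate mice.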

Additional observations from a re-analysis of the deposited data

Results flagged for a closer look

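In 9 of the 17 member and group combinations examined, 1 library lay far from the others of its group. Many of these groups hold counts of 0 or near it, in which a few counts set a library apart. The 9 are therefore not read as an excess over chance. In B1/P, tumor 248662 stood above the rest for Stag3 (138 CPM), Smc1b (9.80 CPM) and Tex101 (2.77 CPM), and tumor 225070 for Ddx4 (1.63 CPM). In B1/P/Rbf, tumor 209490 stood apart for Stag3 (2.59 CPM), 208863 for Hormad1 (0.331 CPM) and 208857 for Dazl (0.162 CPM). In P/Rbf, tumor 287822 stood apart for Smc1b (0.105 CPM) and 287842 for Tex101 (0.115 CPM).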

How the results depend on the processing

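Of the member values recomputed, 408 kept their direction and side of the threshold, 11 lost significance and 13 changed sign. Beside a main count of 2, the members called lower in B1/P/Rbf against B1/P numbered 1 with limma-voom and 0 with the library set term, and in P/Rbf against B1/P 1 with limma-voom. The members called higher in B1/P than in glands numbered 1 with limma-voom, 1 in a fit of only these groups and 0 to 2 with 1 library left out, with 1 without 248662, 330154 or 330155 and 0 without 330156. Members lower in P/Rbf than in glands numbered 1 (Dazl) with no filter. Sign changes were all in values that no test called. Leaving out 1 library, Stag3 in B1/P/Rbf against glands ranged from -0.0377 to 0.94, Smc1b there from -1.07 to 0.53, and Ddx4 from -0.23 to 1.08 in P/Rbf against B1/P, -0.054 to 0.75 in B1/P/Rbf against P/Rbf and -0.52 to 0.55 in B1/P against glands. Stag3 in P/Rbf against glands was 0.49 with limma-voom. Smc1b in B1/P/Rbf against glands was 0.54 with limma-voom, 0.081 without TMM and 3.39 with the set term. Ddx4 with the set term was -0.45 in B1/P/Rbf against P/Rbf and -0.18 in B1/P against glands. Causes were not tested.

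Alternatives for the list genes were chosen after seeing the data. There 842 values kept their call, 157 lost it and 1 changed sign, the called value of Setdb1, which ranged from -0.0139 to 3.10 with 1 library left out. Germline list genes called lower in B1/P/Rbf against B1/P numbered 1 to 3 by the other fits and 2 to 5 with 1 library left out, and in P/Rbf against B1/P 1 to 9 and 7 to 10. Those called higher numbered 1 to 5 and 1 to 4 in B1/P/Rbf, and 0 to 2 and 0 to 2 in P/Rbf. The stricter filter on log2 CPM kept 0 members. No paired analysis was possible because the groups share no replicate numbers. At these depths members under 3 counts could not be compared.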
